A study of Mus musculus with 18 samples.

Results

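The genes described here are 40 proliferation genes of S phase and mitosis, taken by symbol from a list of replication and mitosis genes, out of 30172 genes listed for the ovaries of F1 female mice. All 40 symbols were found, with 14 members of S phase and 26 of mitosis. The ovaries were wild type C57BL/6J whole ovaries from pups whose mothers ate chow enriched to 3% methionine (F1-HHcy) or normal chow (F1-Control), starting 4 weeks before mating by the labels and going on through gestation and lactation, and the pups themselves were not treated. The study's methods time the start of the diet differently from the labels. The model is therefore an exposure through the mother, named for hyperhomocysteinemia, a raised level of the amino acid homocysteine in blood. Ovaries were collected at postnatal day 3, 7 or 21 (Pd3, Pd7, Pd21), with 3 libraries in each of the 6 groups and 18 in all. The labels place the 12 libraries of Pd3 and Pd7 in batch 1 and the 6 of Pd21 in batch 2, so age and batch cannot be told apart wherever Pd21 is set beside another day. Nothing in the labels says whether a library held 1 pup or several or whether litters differed. The p-values thus rest only on the spread between these libraries.

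A dividing cell copies its DNA once in S phase and parts the copies in mitosis. In late G1, Cdc6 and Cdt1 load the MCM helicase on replication origins, cyclin E with its kinase and the GINS complex start it, and the clamp Pcna and the ribonucleotide reductase of Rrm1 and Rrm2 keep synthesis going. In mitosis, Cdk1 with cyclin B drives entry, kinases and motors build the spindle, and the anaphase-promoting complex with Cdc20 and the ubiquitin-conjugating enzyme Ube2c marks cyclin B for destruction. In the young ovary the oocytes have left the mitotic cycle before birth, while the pregranulosa, granulosa and stromal cells around them divide as follicles form and grow, and growing oocytes store transcripts of some of these genes, such as cyclin B, for meiosis. In RNA of a whole ovary, fewer cells of a type and less RNA per cell cannot be told apart.

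The promoters of the members whose level was lower in F1-HHcy at Pd7 are shown because genes of S phase and mitosis are known for a few short promoter motifs. Of the 40 members, 33 matched a promoter in the RefSeq table of build GRCm38.p6, and Ccna2, Aurkb, Kif20a, Tpx2, Mcm4, Gins2 and Ccne2 had none. The submitters' processing notes name GRCm38/mm10 for these data. Each line gives 150 bases, from 170 to 21 bases before the RefSeq start, 5′ to 3′ on the strand of the gene. Capitals mark a CCAAT box (CCAAT, or ATTGG on the other strand) or a cell cycle genes homology region, known as CHR (TTTGAA, or TTCAAA on the other strand).
Ube2c, chr2:164769759-164769908, plus strand: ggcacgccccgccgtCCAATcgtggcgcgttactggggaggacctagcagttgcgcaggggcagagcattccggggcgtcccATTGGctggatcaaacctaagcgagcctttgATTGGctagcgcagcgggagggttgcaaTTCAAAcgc
Birc5, chr11:117849067-117849216, plus strand: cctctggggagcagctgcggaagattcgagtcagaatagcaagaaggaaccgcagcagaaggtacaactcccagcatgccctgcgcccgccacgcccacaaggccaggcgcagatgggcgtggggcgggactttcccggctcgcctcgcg
Rrm1, chr7:102441525-102441674, plus strand: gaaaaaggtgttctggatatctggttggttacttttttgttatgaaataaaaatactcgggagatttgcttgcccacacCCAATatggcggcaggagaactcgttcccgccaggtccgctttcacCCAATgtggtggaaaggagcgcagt
Rrm2, chr12:24708084-24708233, plus strand: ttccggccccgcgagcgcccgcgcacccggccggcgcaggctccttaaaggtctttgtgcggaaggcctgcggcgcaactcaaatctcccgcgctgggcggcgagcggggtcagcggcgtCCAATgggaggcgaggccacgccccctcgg

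Only the Ube2c stretch, among these 4, held a CHR, 29 to 24 bases before the start, and it held 3 CCAAT boxes as well. GENCODE M21 starts Ube2c 31 bases before the RefSeq start, so by that annotation this CHR lies within the first bases of the gene. Rrm1 held 2 CCAAT boxes, Rrm2 held 1, and Birc5 held none of the motifs in the printed stretch. Over the 250 bases before the start, searched on both strands, 27 of the 33 member promoters (81.8%) held a CCAAT box, compared with 33.8% of all 32851 promoters in the table. A CHR was present in 10 of the 33 (30.3%), compared with 16% of all promoters. An E2F motif, searched as TTTCCCGC, TTTCGCGC, TTTGCCGC and TTTGGCGC with their reverse complements, was present in 5 of the 33 (15.2%), in Cdk1, Mcm5, Mcm6, Mcm7 and Cdc6, compared with 1.86% of all promoters. In Mcm5 and Mcm6, E2F strings on opposite strands overlapped each other. These are matches of letters only, and CHR strings at any place in the window were counted.

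All 40 members lay at 1 FPKM or more in all 18 libraries, and all 40 passed the filter of each comparison. FPKM is the number of fragments of a gene scaled by its length and by the depth of the library, so it can be compared between genes. Depth lay between 33630641 and 39399281 fragments per library, and the member with the fewest fragments, Ccne1, still had 207 in its lowest library. Pcna had the highest mean FPKM over the 18 libraries (184), followed by Ube2c (102), Mcm7 (52.7), Ccnb1 (52.4) and Top2a (46.7). The lowest means were those of Cdc6 (4.94), Ccne1 (5.25) and Ccne2 (6.55). Across all libraries the highest value of a member was between 1.55 times (Prc1) and 4.42 times (Ube2c) its lowest. Ovary markers were present in every library: the summed FPKM of 9 granulosa markers ran from 273 to 1561, and that of 10 markers of growing oocytes from 1158 to 4343.

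**Figure D1:**
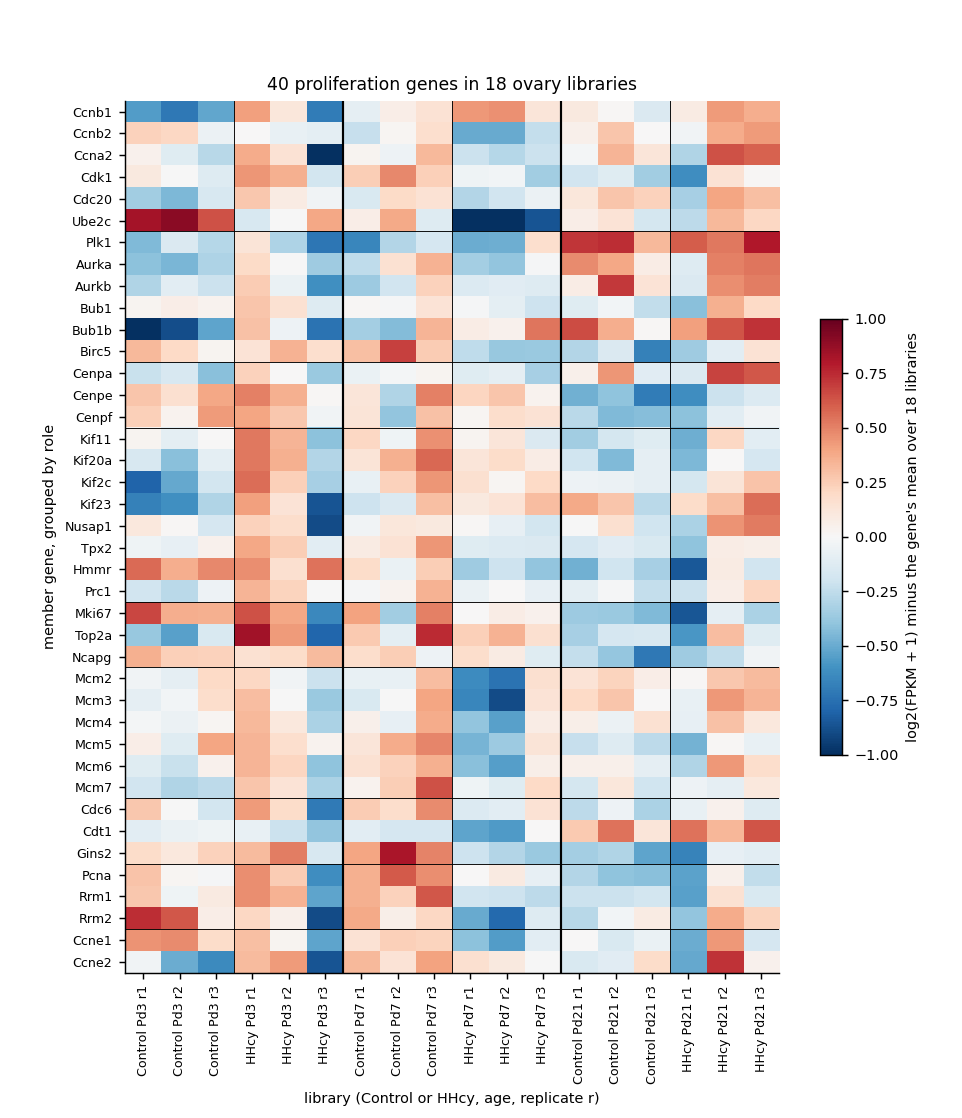
Level of the 40 members (vertical axis, grouped by role) in the 18 libraries (horizontal axis), as log2(FPKM + 1) minus the mean of the gene over all libraries; red is above and blue below that mean, with colours ending at 1 and -1. The column of F1-HHcy Pd3 replicate 3 is blue for most members, the block of MCM genes is blue in F1-HHcy Pd7 replicates 1 and 2, and Ube2c is dark red in the F1-Control Pd3 libraries and dark blue in the F1-HHcy Pd7 libraries.

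Some libraries stood apart from others of their group across many members at once. F1-HHcy Pd3 replicate 3 was the lowest of its group for 36 of the 40 members and F1-HHcy Pd3 replicate 1 the highest for 34. F1-HHcy Pd21 replicate 1 was the lowest of its group for 36 members, and F1-Control Pd7 replicate 3 the highest for 29. The mean of log2(FPKM + 1) over the 40 members was 5.03, 4.87 and 4.35 in the F1-HHcy Pd3 libraries, with an SD of 0.36, and 4.70, 4.63 and 4.68 in the F1-Control Pd3 libraries, with an SD of 0.039. At Pd21 the SD of this mean was 0.28 in F1-HHcy and 0.088 in F1-Control. At Pd7 the order was turned, with 0.077 in F1-HHcy and 0.14 in F1-Control. Results that rest on these libraries are given with and without them.

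The diets were compared at each age with limma on log2(FPKM + 1), fitted over all genes that reached 1 FPKM in 3 or more of the 6 libraries compared. A difference is F1-HHcy minus F1-Control in log2 units with its standard error (SE). A gene was called where the unadjusted p was under 0.05 and the difference was over 0.58 in size, and the p adjusted over all genes tested that day (Benjamini-Hochberg) is given beside it.

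At Pd3, when primordial follicles have just formed, 1 member fell and 2 rose in F1-HHcy by this criterion, and none had an adjusted p under 0.05. Among all 13277 genes tested, 5% were called higher and 4.74% lower, so 2 and 1 of 40 lie close to that background, and 1.64% were higher and 1.43% lower with an adjusted p under 0.05. Over the members the difference ran from -0.71 to 0.68, with 23 positive and 17 negative and a median of 0.054, beside -0.031 over all genes. Among the 14 S-phase members the median was -0.023 and among the 26 mitosis members 0.12. With limma, 5 of the 40 members (12.5%) had an unadjusted p under 0.05, fewer in share than the 22.4% of all genes.

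Ube2c, the ubiquitin-conjugating enzyme that works with the anaphase-promoting complex, was the member that fell at Pd3. Its level was 169.6, 179 and 148 FPKM in the F1-Control libraries and 85.0, 95.1 and 125 FPKM in the F1-HHcy libraries. Every F1-HHcy library lay below every F1-Control library. The mean went from 165 ± 15.6 to 102 ± 20.7 FPKM (SD, n = 3), a difference of -0.71 (SE 0.16, adjusted p = 0.0587, limma), and leaving out any 1 library kept it called, between -0.87 and -0.59. The annotated gene spans chr2:164769898-164778822 on the plus strand in GRCm38, and an exon of Tnnc2 overlaps it on the opposite strand. Whether fragments were counted by strand is not given in the sources used here, and Tnnc2 itself had at most 0.377 FPKM in any library.

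Bub1b, the checkpoint kinase that holds back anaphase until chromosomes are attached, was called higher. It was at 12.0, 14.3 and 18.6 FPKM in F1-Control Pd3 and at 33.6, 26.2 and 15.9 FPKM in F1-HHcy Pd3, so replicate 3 of F1-HHcy lay inside the control range. The difference was 0.68 (SE 0.27, adjusted p = 0.196, limma). Kif2c, a kinesin that takes apart microtubules at wrongly attached kinetochores, had the same layout, with 8.96, 11.2 and 14.3 FPKM in F1-Control and 24.6, 19.5 and 12.7 FPKM in F1-HHcy. Its difference was 0.65 (SE 0.25, adjusted p = 0.183, limma). The calls of Bub1b and Kif2c were lost when F1-Control Pd3 replicate 1 or 2 or F1-HHcy Pd3 replicate 1 or 2 was left out, with differences down to 0.45 for each. Both calls were also lost with the replicate number as a block (unadjusted p of 0.0781 and 0.0728, limma) and without the filter on low values (0.0597 and 0.051, limma).

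Without F1-HHcy Pd3 replicate 3, 7 members were called higher, namely Bub1b, Kif2c, Ccnb1, Ccne2, Kif20a, Kif23 and Top2a, Ube2c stayed lower, and the median difference was 0.27 with 33 of 40 positive. Without F1-HHcy Pd3 replicate 1, none was called higher, Ube2c, Rrm2 and Ccne1 were called lower and the median was -0.028. The direction of the members as a group at Pd3 thus turned with the choice of library. With any 1 library left out, Ube2c kept its direction, and so did some other members, such as Rrm2 (-0.90 to -0.35) and Cdc20 (0.34 to 0.50). Others, such as Mki67 (-0.59 to 0.051), did not. The same 3 libraries differed in cell type markers: the summed FPKM of 7 theca and steroidogenic markers was 713, 369.9 and 89.2 in F1-HHcy Pd3 replicates 1, 2 and 3, and that of 12 markers of germ cells and primordial oocytes was 201, 380.4 and 676. In F1-Control Pd3 these sums lay between 107 and 162 and between 629 and 782, so replicate 3 was below the controls on the first list and within their range on the second. By gene, 1 of 3 tested theca markers was called higher and 5 of 11 tested germ cell markers lower at Pd3, with Cyp17a1, Cyp11a1, Lhcgr and Insl3 under 1 FPKM in all F1-Control libraries. All 10 erythroid markers were called lower, with sums of 4064 to 11961 FPKM in F1-Control and 802 to 1112 FPKM in F1-HHcy. Of 10 markers of growing oocytes 7 were called higher, with sums of 1158 to 1759 and 2152 to 3340.0 FPKM, and of 7 stroma markers 6 were, with sums of 647 to 872 and 1131 to 1371 FPKM. Of the endothelial markers 3 of 6 and of the tested granulosa markers 3 of 7 were called higher, with sums of 46.5 to 64.5 against 76.4 to 113 FPKM and of 273 to 288 against 314 to 557 FPKM. None of the markers of these 7 lists was at 0 in all libraries of a Pd3 group. The part of cell make-up in the members' levels was not tested.

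The other members at Pd3 did not pass the criterion. Cdc20, the activator of the anaphase-promoting complex, with 22.5, 21.0 and 25.8 FPKM in F1-Control and 35.0, 30.6 and 28.2 FPKM in F1-HHcy, and the midzone protein Prc1, with 36.5, 34.4 and 40.2 against 52.9, 48.9 and 41.7 FPKM, had groups that did not overlap, 2 members higher in this way beside 11.8% of all genes. Their differences were 0.42 (SE 0.12) and 0.36 (SE 0.12), under the size set for a call. Ube2c was the only member lower without overlap, beside 16.1% of all genes. Rrm2 had a difference of -0.69, but its unadjusted p with limma was not under 0.05. It was at 37.3, 34.3 and 23.1 FPKM in F1-Control and 25.4, 22.8 and 11.4 FPKM in F1-HHcy, with overlap. Pcna, the replication clamp, was at 217, 180.4 and 177 FPKM in F1-Control and 247, 213 and 116 FPKM in F1-HHcy, an overlap on both sides. Mcm7, the most abundant MCM subunit, was at 45.5, 42.1 and 43.3 FPKM in F1-Control and 63.1, 57.1 and 41.4 FPKM in F1-HHcy. Top2a, which untangles sister DNA, spread from 25.4 to 80.5 FPKM in F1-HHcy, around its F1-Control values of 30.2 to 40.1 FPKM. Cenpa, the centromeric histone, ran from 17.7 to 21.4 FPKM in F1-Control and from 18.3 to 28.3 FPKM in F1-HHcy. Mki67, the gene of the Ki-67 proliferation antigen, was at 54.9, 44.2 and 43.9 FPKM in F1-Control and 53.7, 44.9 and 21.5 FPKM in F1-HHcy, a difference of -0.34 (SE 0.31, adjusted p = 0.561, limma).

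**Figure D2:**
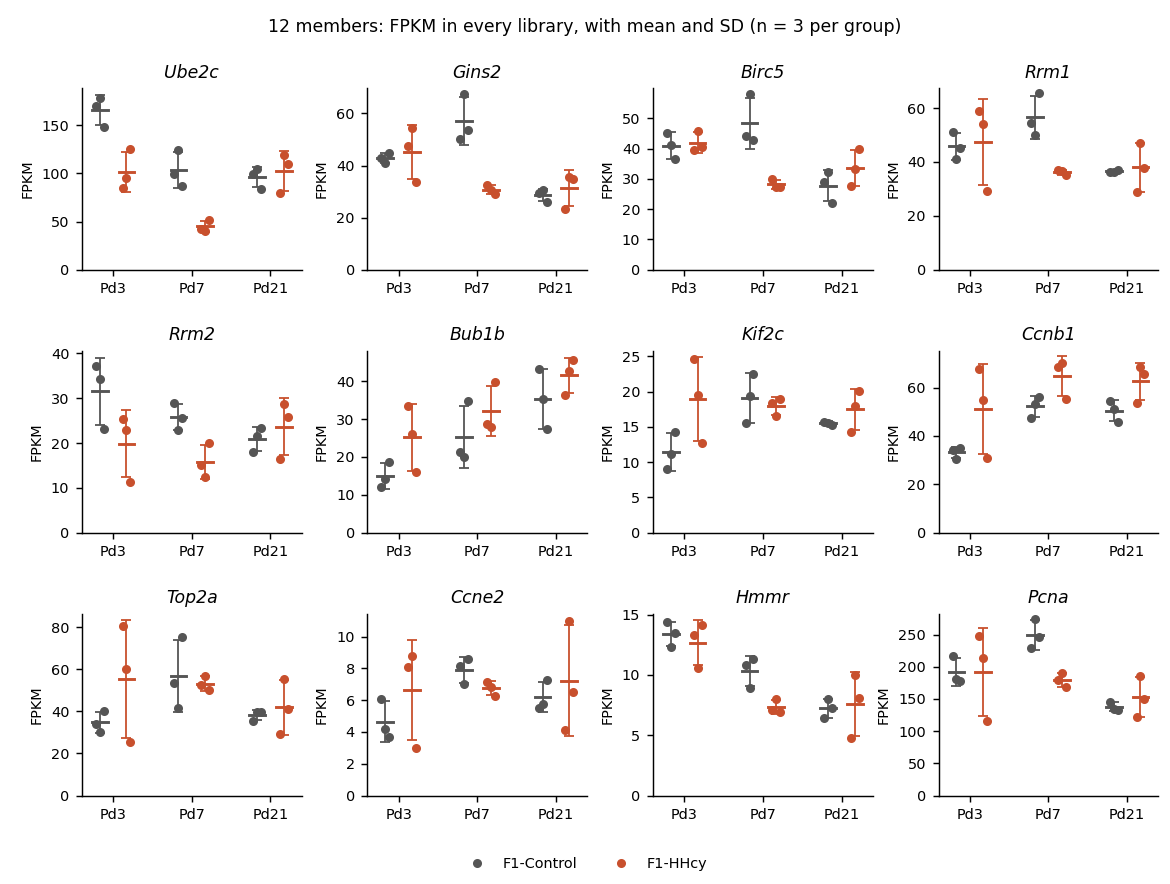
FPKM (vertical axes, starting at 0) of 12 members at Pd3, Pd7 and Pd21 in F1-Control (grey) and F1-HHcy (orange); points are libraries, thick bars the group means and error bars the SD of 3 libraries. For Ube2c, Gins2, Birc5, Rrm1 and Rrm2 the F1-HHcy points at Pd7 lie below all F1-Control points of that day, and at Pd21 the groups overlap for all 12 genes.

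At Pd7, in the first wave of follicle growth, 5 members fell in F1-HHcy and none rose, and each of the 5 had an adjusted p under 0.05. They were Ube2c, Gins2, Birc5, Rrm1 and Rrm2. Among all 13299 genes tested 7.35% were called lower and 9.06% higher, so the count of 5 of 40 lower lies near that background. With an adjusted p under 0.05, 5.88% of all genes were higher and 5.98% lower, beside the same 5 of 40 members lower and 0 of 40 higher. An unadjusted p under 0.05 was found for 14 members (35.0%, limma), beside 31.5% of all genes. The difference was negative for 34 of the 40 members, with a median of -0.27, beside -0.0015 over all genes. It was negative for all 14 S-phase members, with a median of -0.51 and a range of -0.86 to -0.20, and for 20 of the 26 mitosis members, with a median of -0.16. The groups did not overlap for 15 members, all lower in F1-HHcy, beside 19.5% of all genes lower without overlap.

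**Figure D3:**
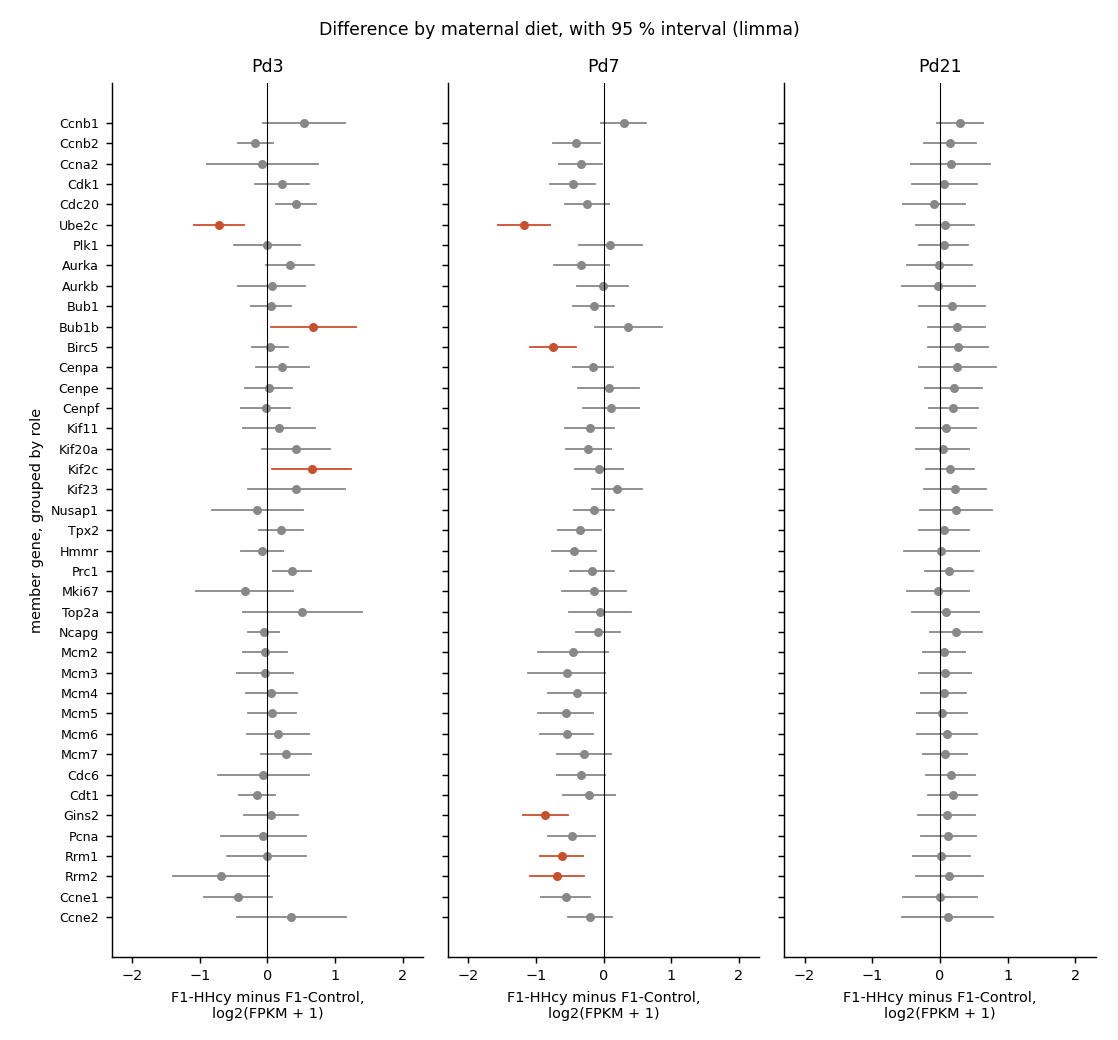
Difference between the diets (horizontal axis, F1-HHcy minus F1-Control in log2(FPKM + 1)) for each member (vertical axis) at Pd3, Pd7 and Pd21; points are limma estimates, lines their 95% intervals, and orange marks called members. At Pd7 the 14 S-phase members at the bottom are all left of 0, at Pd3 the members lie on both sides, and at Pd21 every interval spans 0.

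Among the proteins that end mitosis, Ube2c had the largest difference of the 40 members at Pd7. It was at 99.8, 124 and 87.1 FPKM in F1-Control and at 42.5, 40.4 and 51.8 FPKM in F1-HHcy, with no overlap. The mean went from 104 ± 18.9 to 44.9 ± 6.06 FPKM (SD, n = 3), a difference of -1.18 (SE 0.17, adjusted p = 0.00474, limma), and it stayed between -1.30 and -1.05 with any 1 library left out. Its substrate Ccnb1 differed in the other direction without passing, by 0.30 (SE 0.15, adjusted p = 0.201, limma), from 52.3 ± 4.39 to 64.7 ± 8.19 FPKM. Ccnb2 (-0.40), Ccna2 (-0.34) and Cdk1 (-0.46) did not overlap between the groups and were lower in F1-HHcy, under the size set for a call, with adjusted p-values from limma of 0.112, 0.139 and 0.0699. Cdc20 had a difference of -0.24 (SE 0.15).

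Birc5, known as survivin and a subunit of the chromosomal passenger complex with Aurkb, fell as well. It was at 44.3, 58.1 and 42.9 FPKM in F1-Control and 29.9, 27.3 and 27.5 FPKM in F1-HHcy. The 3 F1-HHcy libraries lay within 3 FPKM of each other and below every control, a difference of -0.74 (SE 0.15, adjusted p = 0.0153, limma), between -0.82 and -0.61 with 1 library left out. Birc5 is annotated at chr11:117849251-117855743, plus strand, with no exon of another gene over it. Its partner Aurkb had a difference of -0.017 (SE 0.17), and the other kinases and checkpoint genes, Plk1 (0.098), Aurka (-0.33), Bub1 (-0.15) and Bub1b (0.36), were not called. Bub1b, at 21.3, 19.9 and 34.7 FPKM in F1-Control and 28.7, 28.0 and 39.8 FPKM in F1-HHcy, was called higher once F1-Control Pd7 replicate 3 was left out.

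Gins2, a subunit of the GINS complex that switches on the MCM helicase, had the largest difference of the S-phase members. It was at 50.1, 67.4 and 53.6 FPKM in F1-Control and 32.6, 30.7 and 29.0 FPKM in F1-HHcy. The groups were well apart, with a difference of -0.86 (SE 0.15, adjusted p = 0.00859, limma) that stayed between -0.95 and -0.74 with 1 library left out. Gins2 lies at chr8:120578633-120589304 on the minus strand, where an exon of Gse1 overlaps it on the opposite strand, and Gse1 was at 1.33 to 3.29 FPKM in F1-Control and 2.38 to 2.88 FPKM in F1-HHcy at Pd7. The loading factors Cdc6 (-0.33, SE 0.16) and Cdt1 (-0.22, SE 0.17) were not called.

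Rrm1 and Rrm2, the large and small subunits of ribonucleotide reductase, which makes the deoxynucleotides for replication, both fell. Rrm1 was at 54.4, 49.9 and 65.5 FPKM in F1-Control and 36.9, 36.6 and 35.1 FPKM in F1-HHcy, a difference of -0.62 (SE 0.14, adjusted p = 0.0241, limma). Rrm2 was at 28.9, 23.0 and 25.5 FPKM in F1-Control and 15.2, 12.4 and 19.95 FPKM in F1-HHcy, a difference of -0.69 (SE 0.18, adjusted p = 0.0387, limma). Neither gene overlapped between the groups. Rrm2 had nearly the same difference at Pd3, -0.69, where it was not called. Rrm1 was no longer called without F1-Control Pd7 replicate 3 (-0.51) and Rrm2 was no longer called without F1-HHcy Pd7 replicate 2 (-0.54). Rrm1 is annotated at chr7:102441695-102469771 and Rrm2 at chr12:24708241-24714146, both on the plus strand. Pcna, at 228, 274 and 246 FPKM in F1-Control and 179, 190.0 and 168 FPKM in F1-HHcy, was lower without overlap, with a difference of -0.47 (SE 0.16, adjusted p = 0.0743, limma), under the size set for a call.

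The 6 MCM subunits all had negative differences at Pd7, from -0.56 for Mcm5 to -0.29 for Mcm7, and none was called. Mcm3 shows the layout that 5 of them shared, with 26.2, 29.1 and 38.7 FPKM in F1-Control and 18.2, 15.2 and 32.1 FPKM in F1-HHcy. The first 2 F1-HHcy libraries were below every control, and replicate 3 was within the control range. Mcm7 was at 53.3, 61.9 and 81.3 FPKM in F1-Control and 50.5, 47.8 and 59.8 FPKM in F1-HHcy. Without F1-HHcy Pd7 replicate 3, 10 members were called lower, the 5 above with Mcm2, Mcm3, Mcm5, Mcm6 and Ccne1, and without F1-Control Pd7 replicate 1 there were 9, the 5 above with Mcm3, Mcm5, Mcm6 and Ccne1. Ccne1, the cyclin E of the G1 to S step, had a difference of -0.56 (SE 0.16, adjusted p = 0.0506, limma). Ccne2, at 8.12, 7.01 and 8.6 FPKM in F1-Control and 7.14, 6.8 and 6.27 FPKM in F1-HHcy, had one of -0.20 (SE 0.14).

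No member of the kinetochore, spindle or chromosome structure groups was called at Pd7. Cenpe (0.071) and Cenpf (0.11) were slightly positive, and Cenpa, with 22.9, 23.7 and 24.5 FPKM in F1-Control and 22.03, 22.5 and 18.8 FPKM in F1-HHcy, was lower without overlap by -0.16 (SE 0.13). Of the 8 spindle members, Hmmr (-0.44) and Tpx2 (-0.36) were lower without overlap, Kif23 was positive (0.20), and Prc1 had a difference of -0.17 (SE 0.14), with 41.5, 42.8 and 53.5 against 39.8, 41.8 and 39.3 FPKM. Top2a, at 53.6, 41.6 and 75.4 FPKM in F1-Control and 52.7, 57.0 and 49.96 FPKM in F1-HHcy, had a difference of -0.054, with a 95% interval from -0.51 to 0.40. For Mki67 the difference was -0.15 with an interval from -0.62 to 0.33, and for the condensin subunit Ncapg it was -0.081 with one from -0.41 to 0.24.

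**Figure D4:**
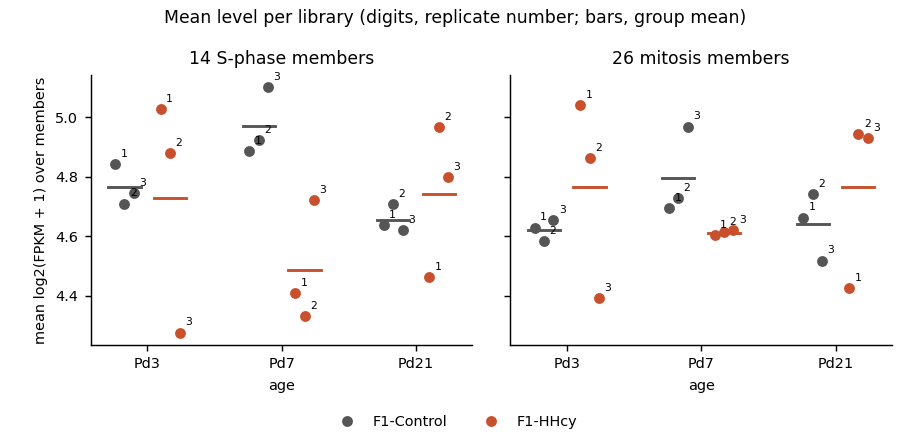
Mean log2(FPKM + 1) over the 14 S-phase members (left) and the 26 mitosis members (right) in each library by age; digits are replicate numbers, bars group means, and the vertical axis does not start at 0. At Pd7 the F1-HHcy libraries have 4.41, 4.33 and 4.72 for S phase, below the F1-Control values of 4.88 to 5.10, and 4.60 to 4.62 for mitosis, below 4.69 to 4.97.

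Of the wider lists of cell cycle genes, which held no member, the replication and mitosis lists had mostly the same sign at Pd7. Of 34 other replication genes 31 had a negative difference, 3 were called lower and none higher, with a median of -0.41. Of 44 other mitosis genes 35 were negative, 5 were called lower and none higher, with a median of -0.19. The 3 of 34 and 5 of 44 called lower lie near the 7.35% of all genes. With an adjusted p under 0.05, 6 of 34 and 5 of 44 were lower and none higher, beside 5.98% of all genes lower. An unadjusted p under 0.05 was found with limma for 18 of 34 and 12 of 44, beside 31.5% of all genes. The groups did not overlap, with F1-HHcy lower, for 18 of 34 and 16 of 44, beside 19.5% of all genes. In 1 of the 44 F1-HHcy was higher without overlap. The first list was led by Chaf1b, a subunit of the histone chaperone CAF-1, which fell from 19.6 ± 4.40 to 10.05 ± 1.93 FPKM (-0.89, adjusted p = 0.0204, limma), and by Rfc4, a subunit of the clamp loader of Pcna, which fell from 44.8 ± 10.4 to 25.2 ± 2.18 FPKM (-0.78, adjusted p = 0.0216, limma). The second was led by Ect2, which starts the contractile ring, from 28.0 ± 3.29 to 13.01 ± 0.366 FPKM (-1.04, adjusted p = 0.00336, limma), and by Spc24, of the kinetochore, from 44.6 ± 7.87 to 21.5 ± 2.81 FPKM (-1.01, adjusted p = 0.00681, limma). None of the 18 regulators of cell cycle transcription (E2f, Dp, Rb and DREAM complex genes) was called at Pd7, with 10 negative and a median of -0.017, and none had an unadjusted p under 0.05 with limma. At Pd3, 1 of the 44 mitosis genes, Knstrn, was called higher (0.73, adjusted p = 0.173, limma), none of the 34 replication genes was called, and 1 regulator, E2f2, was called lower (-1.16, adjusted p = 0.0803, limma). Another 1 of the 44 mitosis genes was lower with an adjusted p under 0.05, without the size for a call, beside 1.43% of all genes.

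**Figure D5:**
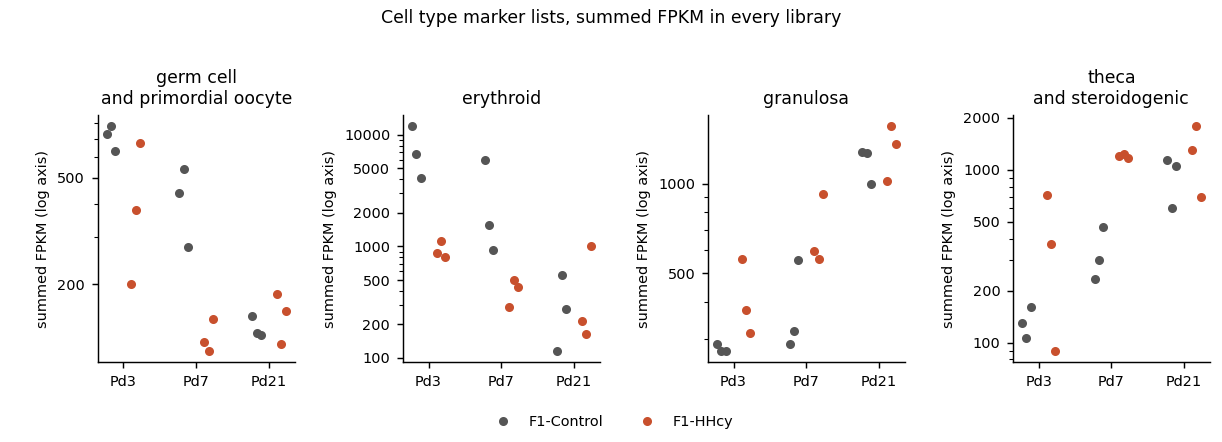
Summed FPKM (vertical axes, log scale) of 4 lists of cell type markers at Pd3, Pd7 and Pd21 in F1-Control (grey) and F1-HHcy (orange), 1 point per library. At Pd7 the germ cell list lies between 112 and 148 in F1-HHcy and between 276 and 540.1 in F1-Control, and the theca list between 1172 and 1230.3 against 233 and 468. Hsd3b1 makes up most of the theca sum in every library.

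Marker lists of other cell types moved with the diet at Pd7 as well. Of 12 markers of germ cells and primordial oocytes, 11 were tested, 10 were called lower and 1 higher, and the summed FPKM was 276 to 540.1 in F1-Control and 112 to 148 in F1-HHcy, with Stra8 at 0 in all F1-Control libraries. All 7 theca and steroidogenic markers were called higher, with sums of 233 to 468 and 1172 to 1230.3 FPKM. Of 9 granulosa markers, a list of the dividing somatic cells of the follicle, 5 were called higher and none lower, with sums of 288 to 553 and 558 to 922 FPKM. All 6 tested of 10 erythroid markers were called lower, with sums of 928 to 5996 and 288 to 505 FPKM, the highest in F1-Control Pd7 replicate 1. Of 10 markers of growing oocytes 5 were called lower and 2 higher, with sums of 2699 to 4343 and 1654 to 2509 FPKM, and of 8 markers of surface and oviduct epithelium 5 were called lower and 1 higher, with sums of 454 to 788 and 197 to 381 FPKM. Apart from Stra8, no marker of these 6 lists was at 0 in all libraries of a Pd7 group. The part of these cell types in the members' differences was not tested. Rescaling after leaving out hemoglobin and mitochondrially encoded genes called the same 5 members at Pd7 and the same 3 at Pd3.

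At Pd21, close to weaning, no member passed the criterion in either direction. Among all 13350 genes tested, 0.0824% were called higher and 5.06% lower, and with an adjusted p under 0.05 it was 0% and 2.23%. Neither limma on log2(FPKM + 1) nor limma-voom on recovered fragments called a member, and the first gave none an unadjusted p under 0.05, beside 6.85% of all genes. The differences ran from -0.085 for Cdc20 to 0.30 for Ccnb1, with 35 of 40 positive and a median of 0.10, beside -0.011 over all genes. No member had groups that did not overlap, beside 1.92% of all genes higher and 8.61% lower in that way.

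The spread at Pd21 lay between libraries. F1-HHcy Pd21 replicate 1 was below every F1-Control library for 28 members, while replicates 2 and 3 were each above every F1-Control library for 33. Without replicate 1 all 40 differences were positive with a median of 0.27, and without replicate 2 the median was -0.0083 with 19 positive, and no member was called in either case. Ube2c, at 99.6, 105 and 84.1 FPKM in F1-Control and 79.3, 119 and 109.7 FPKM in F1-HHcy, had a difference of 0.081 with a 95% interval from -0.35 to 0.51. Pcna was at 146, 135 and 133 FPKM in F1-Control and 122.7, 185 and 149.8 FPKM in F1-HHcy. For the members called at Pd7 the Pd21 differences were 0.27 (Birc5), 0.10 (Gins2), 0.022 (Rrm1) and 0.14 (Rrm2), each with an SE of 0.18 to 0.21. At this age 6 of 7 tested markers of multiciliated cells and all 8 of surface and oviduct epithelium were called lower in F1-HHcy, the latter with sums of 363 to 873 FPKM in F1-Control and 114 to 223 FPKM in F1-HHcy, and their part in the members' levels was not tested. Mki67 had a difference of -0.028 (SE 0.20), with 26.2, 26.2 and 24.8 FPKM in F1-Control and 18.4, 32.0 and 27.2 FPKM in F1-HHcy.

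Whether the diet difference itself changed from Pd3 to Pd7 was tested in 1 model of the 6 groups. It was lower at Pd7 by the same criterion for 9 members, Cdk1, Cdc20, Aurka, Birc5, Kif20a, Kif2c, Mcm5, Mcm6 and Gins2, and higher for none, and none of the 40 passed an adjusted p of 0.05. Of the 14607 genes in this fit, 5.28% were called lower and 4.75% higher, and 0.308% and 0.103% with an adjusted p under 0.05, and 12 members (30%) had an unadjusted p under 0.05 with limma beside 13.8% of all genes. The change was negative for 35 of 40 members, all 14 of S phase among them, with a median of -0.40 beside 0.0069 over all genes. Over the S-phase members it ran from -0.91 to -0.0016, the smallest in size being that of Rrm2. Gins2 had the largest, -0.91 (SE 0.25, adjusted p = 0.116, limma), and Birc5 followed with -0.78 (SE 0.23, adjusted p = 0.143, limma). For Ube2c, lower in F1-HHcy on both days, it was -0.47 (SE 0.26, adjusted p = 0.411, limma). The count was 21 without F1-HHcy Pd3 replicate 3 and 4 without F1-HHcy Pd3 replicate 1, and it was 5 without F1-Control Pd3 replicate 2, F1-HHcy Pd3 replicate 2 or F1-Control Pd7 replicate 3.

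The diet difference at Pd21 was set beside that at Pd7 in the same model, across batches. It was higher at Pd21 for 7 members, Ube2c, Birc5, Gins2, Rrm1, Rrm2, Mcm5 and Mcm6, and lower for none, beside 5.55% of all genes higher and 9.72% lower. With an adjusted p under 0.05 it was higher for 3, Ube2c, Birc5 and Gins2, and lower for none, beside 0.986% and 2.9% of all genes. For the 14 S-phase members the change was positive in all, with a median of 0.57. This comparison uses the Pd7 libraries again, so it is no separate evidence of the differences at Pd7.

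Within F1-Control, 5 members rose from Pd3 to Pd7 and 1 fell. The members that rose were Ccnb1 (0.64), Bub1b (0.70), Kif2c (0.70), Top2a (0.66) and Ccne2 (0.68), and Ube2c was the one that fell (-0.68, SE 0.16, adjusted p = 0.0259, limma). Among all 13336 genes 7% were called higher and 7.77% lower, and 6.9% and 7.59% with an adjusted p under 0.05. Ccnb1 was at 34.2, 30.5 and 35.0 FPKM at Pd3 and 47.5, 53.2 and 56.1 FPKM at Pd7, with no overlap (adjusted p = 0.0116, limma). Of these, Bub1b and Top2a had an adjusted p above 0.05, and Kif20a (0.57) and Mcm7 (0.55) had one under 0.05 without the size for a call. Without F1-Control Pd7 replicate 3, the library highest for most members, only Ccnb1 and Ccne2 were called and Ube2c was not. Without F1-Control Pd7 replicate 1, 9 members were called higher, and without F1-Control Pd3 replicate 2, 3 were. The median over the 40 members was 0.23, beside -0.070 over all genes. Over the same interval all 10 growing oocyte markers were called higher, from sums of 1158 to 1759 at Pd3 to 2699 to 4343 FPKM at Pd7, as were 5 of 6 endothelial, 5 of 9 granulosa (1 lower) and 4 of 7 stroma markers. All 10 erythroid and 6 of 11 tested germ cell markers were called lower, and the part of these cell types in the members' changes was not tested.

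Within F1-HHcy, no member rose from Pd3 to Pd7 and 2 fell. Ube2c fell from 102 ± 20.7 to 44.9 ± 6.06 FPKM (-1.15, SE 0.17, adjusted p = 0.0892, limma), and Hmmr, a spindle protein that also binds hyaluronan, fell from 12.7 ± 1.86 to 7.34 ± 0.587 FPKM (-0.71, SE 0.14, adjusted p = 0.0961, limma). Among all 13257 genes 5.36% were called lower and 5.73% higher, and limma gave none (0%) with an adjusted p under 0.05, beside 3119 genes (23.5%) and 6 members (15%) with an unadjusted p under 0.05. The median over the members was -0.16 with 31 negative, beside -0.031 over all genes. It was -0.36 without F1-HHcy Pd3 replicate 3, with 6 members called lower, and -0.055 without F1-HHcy Pd3 replicate 1, with 3 lower and 2 higher. Without F1-HHcy Pd7 replicate 3, 5 were lower. Among the markers, 10 of 11 tested germ cell, 6 of 6 tested erythroid and 4 of 8 epithelium markers were called lower and 6 of 7 theca markers higher from Pd3 to Pd7, with theca sums of 89.2 to 713 and then 1172 to 1230.3 FPKM, and their part was not tested. These comparisons by age share their libraries with the diet comparisons, so their values are given side by side and not as separate evidence.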

How the data were processed

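Whole ovaries of F1 mice were sequenced as poly-A stranded libraries with RNA integrity numbers above 8 by the labels. The submitters' processing notes list FastQC 0.11.9, Trimmomatic 0.39, STAR 2.7.9a, featureCounts 2.0.1, DESeq2 1.36.0 and GRCm38/mm10, with no role or order. The authors deposited a table of 30172 gene symbols for each library without naming its unit, and these deposited values were read as FPKM because 1 length per gene and 1 factor per library turned all 27294 genes above 0 in at least 3 libraries into whole fragments (100%, tolerance 0.02 fragments). The annotation used for counting and its strand setting are not given in the sources used here.

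From these values, limma 3.58.1 in R 4.3.3, with a variance trend, compared groups on log2(FPKM + 1) for genes at 1 FPKM or more in at least 3 libraries. The pseudocount of 1 understates changes of low genes. Adjusted p-values are by Benjamini-Hochberg over all genes tested. For 1 gene, an exact 2-sided permutation test on 3 against 3 libraries gives at best p = 0.1. The script was tested on simulated data. Intervals are for the difference of group means and rest on the spread between libraries. The members, lists, marker lists and motifs were chosen with earlier results of these data known.

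All members are accounted for; values in every library are given for members called between the diets and for the member with the highest mean of each role group, and other library values were added after they were seen. Of the wider lists, the called genes with the 2 smallest p per list, day and direction are named. Same-numbered libraries of F1-Control deviated together between Pd3 and Pd7 over all genes (r of 0.12, 0.24 and 0.26). Other F1-Control pairs had r of -0.25 to 0.060. In F1-HHcy the same-numbered pairs had r of -0.018, 0.12 and 0.081, and other pairs -0.19 to 0.17. Alternatives were a pseudocount of 0.1, no filter, a model of all 18 libraries, a block for the replicate number, the adjusted p alone, median-ratio scaling, removal of hemoglobin and mitochondrially encoded genes, limma-voom on recovered fragments, and each library left out. Gene positions are from GENCODE M21. Tables used pandas 2.3.3 and numpy 2.4.6 under Python 3.11.15, and plots used matplotlib 3.10.9. All 18 libraries entered the reported results.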

Additional observations from a re-analysis of the deposited data

Results flagged for a closer look

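For 3 members the diet difference at Pd21 minus that at Pd7, tested in 1 model of the 6 groups, had an adjusted p under 0.05. It was 1.26 for Ube2c (SE 0.26, adjusted p = 0.00744, limma), 1.01 for Birc5 (SE 0.23, adjusted p = 0.0151, limma) and 0.96 for Gins2 (SE 0.25, adjusted p = 0.0377, limma), all on the log2 scale. Each of the 3 was lower in F1-HHcy at Pd7 and had a difference between 0.081 and 0.27 at Pd21. By the criterion of p and size, 7 of the 40 members were called higher in this comparison, the others being Mcm5, Mcm6, Rrm1 and Rrm2, beside 5.55% of all genes. The labels place Pd7 and Pd21 in different batches, so age and batch cannot be told apart.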

How the results depend on the processing

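The calls at Pd7 held best: the 5 lower members stayed called in every alternative that kept all libraries, including the replicate block (5 lower), and only Ccne1 joined them, with limma-voom or a pseudocount of 0.1. With 1 library left out, the count lower at Pd7 ran from 4 to 10 and the count higher from 0 to 1. At Pd3 the count higher was 0 without the filter, 0 with the replicate block and 0 by the adjusted p alone, and ran from 0 to 7 with 1 library left out. The count lower at Pd3 was 2 with all 18 libraries in the model, 2 with the replicate block (Rrm2 joining Ube2c) and 0 by the adjusted p, and ran from 1 to 3. The median at Pd3 ran from -0.028 to 0.27. At Pd21 all counts stayed at 0. From Pd3 to Pd7 in F1-Control the count higher was 8 with median-ratio scaling, and ran from 2 to 9, and the count lower from 0 to 1. In F1-HHcy the count lower was 0 by the adjusted p and ran from 2 to 6, and the count higher from 0 to 2. The change of the diet difference from Pd3 to Pd7 was called lower for 0 members by the adjusted p and for 4 to 21 with 1 library left out, and its median ran from -0.62 to -0.24. Between the diets, same-numbered libraries shared only a number (r of deviations from -0.31 to 0.085), and the block changed no other count of calls by more than 1.5 times. Apart from fits with fewer libraries, the cause of these shifts was not tested.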
